A study of Canis lupus familiaris with 33 samples.

Results

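Colon and stomach of adult beagles were compared directly by the regions of the genome in which methylated DNA was enriched. The comparison used the peak lists of the colon and the stomach and only these, on autosomes 1 to 38. All peaks of both lists that overlapped by at least 1 base were merged into regions, and each region was classed as colon only, stomach only or both by the lists that had a peak in it. This gave 289706 regions, beside 450791 when the lists of all 11 tissues of the series were merged in the same way. The classes held 222069 regions with a peak in both tissues, 41272 with a peak in stomach only and 26365 with a peak in colon only.

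The study profiled 11 tissues of healthy dogs by MBD-seq. In this assay DNA is sheared, fragments with methylated CpGs bind to beads that carry a methyl-CpG-binding protein domain, and what is eluted from the beads is sequenced. Of its 33 libraries, 6 belong to this comparison. Each tissue had 2 captured libraries, titled with the animals 679 and jj82 and both labelled female, and 1 input library of DNA that had not been captured, titled jj8 and also labelled female. The animals carried no treatment or genetic change in the labels, and their ages were not given. The titles of the series name 4 animals where 3 dogs are described, and jj8 is labelled male in the captured libraries of other tissues, so the number of animals behind these 6 libraries is uncertain.

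Both captured libraries of a tissue share 1 deposited peak list. No spread between animals can therefore be computed for colon or for stomach, no test between the tissues is possible, and every difference below is a description of 2 lists. Shares of counts are given with 95% Wilson intervals, which cover counting error only. Read depth is unknown, because the lists hold peaks and not reads. The identity of the tissues could not be checked against marker genes, since the peaks were not assigned to genes here.

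In mammalian DNA, methyl groups are added mainly to cytosines followed by guanine (CpG). Most CpGs of a somatic cell are methylated, whereas CpG islands at many promoters are usually not, and regulatory elements active in a cell type often lose methylation there. MBD capture favours stretches with several methylated CpGs, so a peak reports both methylation and CpG density, and the absence of a peak does not show that the DNA was unmethylated. Colon and stomach are both tubes of gut, with an epithelium over connective tissue and smooth muscle, and the epithelium secretes acid and digestive enzymes in the stomach and absorbs water in the colon. In such whole tissue, fewer cells carrying the methylation and a lower level in each cell cannot be told apart.

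The lists were close in size. Colon had 251352 autosomal peaks with a median width of 331 bases, and stomach had 271400 peaks with a median width of 298 bases. The peaks covered 148.0 Mb in colon and 145.6 Mb in stomach, of which 131.0 Mb was covered in both. Colon thus had fewer but wider peaks over nearly the same length. Of the bases under colon peaks, 88.5% lay under a stomach peak, and of those under stomach peaks, 90.0% lay under a colon peak. The fold of a peak, read as enrichment over a control, had a median of 8.17 in colon and 8.80 in stomach, and each fold was divided by its list's median, below called the normalised fold. The strength of the evidence, −log10 of the q-value, had a median of 24.7 in colon and 30.3 in stomach.

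Most methylated regions were found in both organs. Regions of both made up 76.7% of all regions (76.5 to 76.8) and 89.5% of their length, with 145.6 Mb. Regions of stomach only made up 14.2% (14.1 to 14.4) and 9.78 Mb, and regions of colon only 9.1% (8.996 to 9.206) and 7.22 Mb. The larger number for stomach went with the longer list. Colon only regions were 39.0% of the regions found in 1 of these organs, but 53.0% when the stomach list was reduced to the size of the colon list by keeping its highest folds. Which organ had more regions of its own thus depended on how long the lists were taken to be.

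Regions with a peak in 1 of the organs were short and weak. The median width was 244 bases in colon only (quartiles 221 and 284) and 226 bases in stomach only (209 and 246), beside 372 bases in regions of both (281 and 685). The widest colon only region had 2298 bases and the widest stomach only region 1535. The median normalised fold was 0.594 in colon only and 0.604 in stomach only. Regions of both had medians of 1.09 in colon and 1.13 in stomach. On the deposited scale these are folds of 4.85 and 5.31 in the single-organ classes, beside 8.88 and 9.93 in both. The median −log10 q was 9.27 in colon only and 12.1 in stomach only.

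**Figure D1:**
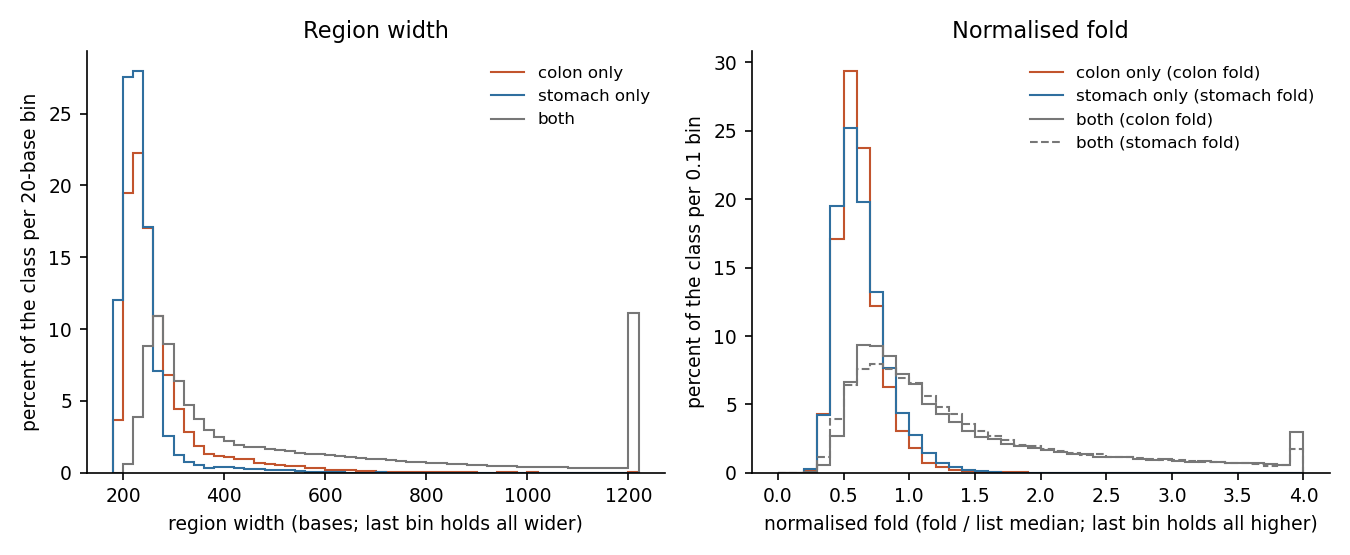
Width of the merged regions in bases (left) and normalised fold, the fold divided by the median of its list (right), as the percent of each class per bin. Colon only (orange) and stomach only (blue) regions pile up at 200 to 300 bases and near a normalised fold of 0.6, while regions of both (grey, solid for colon fold and dashed for stomach fold) spread to wider and stronger peaks.

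Few single-organ regions reached the middle of their own list. In colon, 978 of 26365 (3.71%) had a fold at or above the list median. In stomach, 2355 of 41272 did (5.71%). Width is partly set by the classing, since a region of both joins at least 2 overlapping peaks and a wide merged region is more likely to hold both lists. In regions of both with 1 peak of each organ, the peaks themselves had median widths of 341 bases in colon and 320 in stomach. Among regions under 250 bases, 22.1% were colon only and 49.1% stomach only. Among regions of 300 to 500 bases these shares were 5.84% and 2.75%. Of regions of at least 1000 bases, 99.8% had a peak in both organs, 53 were colon only and 5 were stomach only. Among short regions stomach only was the more frequent class, and from 300 bases upward colon only was.

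Ranking each list by fold showed the same dependence. Among the weakest decile of colon peaks, 59.6% were overlapped by a stomach peak. This share was 72.6% in the next decile, 94.5% in the fifth and 97.5% in the sixth. Among the weakest decile of stomach peaks, 56.2% were overlapped by a colon peak, and the share was 60.6% in the next decile, 88.3% in the fifth and 93.9% in the sixth. In the strongest decile, which held 25136 colon peaks and 27140 stomach peaks, every peak had a counterpart in the other organ. Over whole lists, 89.5% of colon peaks and 84.8% of stomach peaks were found in the other list. Colon peaks were found in the longer stomach list more often than stomach peaks in the shorter colon list. This order depends on list length, since with lists of equal size colon only regions (36676) outnumbered stomach only regions (32554).

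**Figure D2:**
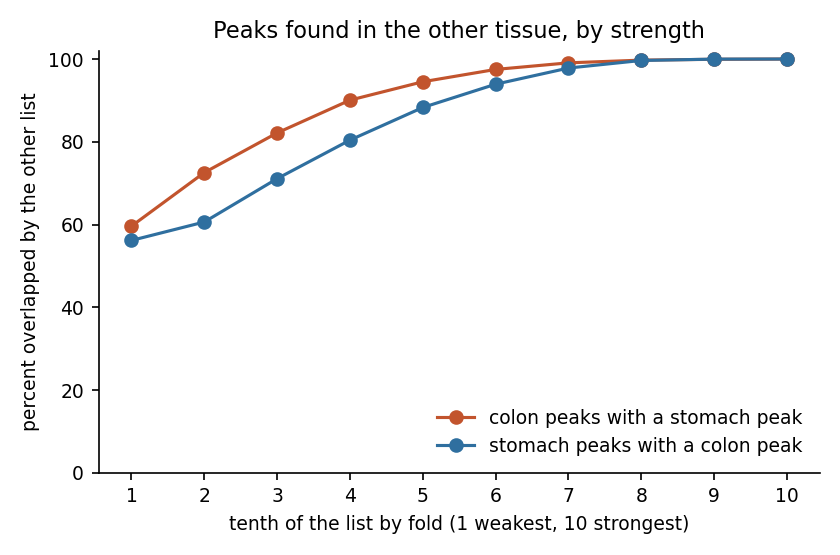
Percent of peaks overlapped by at least 1 base by a peak of the other organ, by decile of the fold within each list (1 weakest, 10 strongest). Both lines climb from under 60% to 100%, and colon peaks (orange) lie above stomach peaks (blue) from decile 1 to decile 8.

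Regions of 1 organ were mostly not the edge of a peak of the other. The nearest stomach peak lay a median of 1398 bases from a colon only region, and 7.78% had one within 200 bases. The nearest colon peak lay a median of 2907.5 bases from a stomach only region, and 5.38% had one within 200 bases. Regions of both were aligned closely. In 95.6% of them each list had exactly 1 peak. Where the numbers differed, stomach had more peaks in 7087 regions (3.19%) and colon in 2459 (1.11%). In the 212224 regions with 1 peak of each, the summits lay a median of 16 bases apart (quartiles 7 and 32), and 93.0% lay within 100 bases. In the same regions the colon peak was the wider one in 59.8%.

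Within regions of both, levels were similar. The ratio of normalised folds, colon over stomach, had a median of 0.01 on the log2 scale, an SD of 0.50 over regions, and a 5th to 95th percentile range of −0.81 to 0.83. The folds lay within 1.5-fold of each other in 77.0% of regions. Colon was at least 2-fold higher in 5916 regions (2.66%), and stomach was at least 2-fold higher in 5028 (2.26%). Across regions the log2 normalised folds of the organs had a Pearson r of 0.826 and a Spearman rho of 0.799 (n = 222069). These regions share CpG content, the same animals in the labels and the rule that both lists call a peak.

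The balance of these 2-fold calls moved with the scaling. Colon held 54.1% of them after division by the list median, 39.9% after division by the list mean and 62.1% with lists of equal size. It held 44.7% among peaks with a −log10 q of at least 10, and 49.3% among the stronger 50% of each list. In each setting that cut the lists, the list median was taken again over the peaks kept. The ratios were thus rescaled as well as filtered, and these shares do not follow the same ratios into stronger peaks. Division by the list mean lowers every log2 ratio given here by 0.07, which exceeds the median ratio of most autosomes but not the ratios of the named regions. No excess of 2-fold changes toward either organ can be read from these values.

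Strong regions differed least. Over quartiles of the mean level, the SD of the log2 ratio was 0.53, 0.55, 0.49 and 0.40 from weakest to strongest. In the strongest quartile 1.47% of regions were 2-fold higher in colon and 0.582% in stomach, beside 3.91% and 2.41% in the weakest. Among the 132993 regions with a −log10 q of at least 20 in both lists, the SD was 0.43, with 2300 regions (1.73%) 2-fold higher in colon and 1334 (1%) in stomach. The medians of the full lists were kept for these values. Width went with direction here too. The median log2 ratio was −0.11 in regions under 300 bases and 0.08 in regions of at least 1000 bases. Regions 2-fold higher in colon had a median width of 444 bases, and those 2-fold higher in stomach 301.

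**Figure D3:**
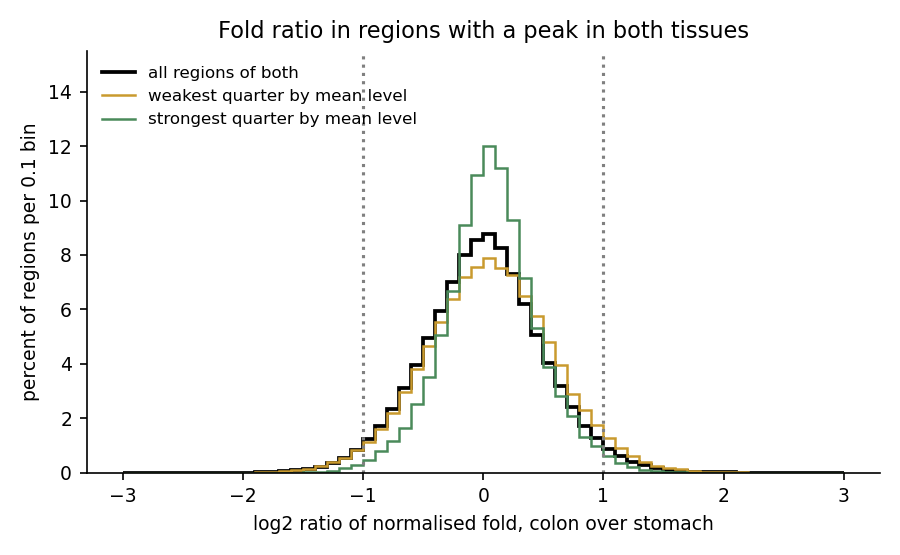
Percent of regions of both per 0.1 bin of the log2 ratio of normalised fold, colon over stomach, with dotted lines at 2-fold in each direction. The black line is all 222069 regions, with an SD of 0.50, and the strongest quartile (green, SD 0.40) is narrower than the weakest (gold, SD 0.53).

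The 2-fold rule cuts through a continuous distribution. The regions nearest to it were chr15:3743542-3744072 just inside (colon fold 8.17, stomach fold 4.40) and chr13:38083773-38084347 just outside (7.72 and 4.16). On the stomach side they were chr23:44569054-44569338 and chr2:42564357-42564609, both with a colon fold of 5.98 and a stomach fold of 12.9. Coordinates here and below are on CanFam3.1, the build that the submitters' processing notes list.

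The largest colon excess among all regions of both was at chr20:36487151-36488172, where the colon fold was 18.9 and the stomach fold 2.79 (log2 ratio 2.87). It was followed by chr14:40291288-40292287, with folds of 20.7 and 3.66 (2.61). At chr36:19967509-19969792 the folds were 32.3 and 5.72 (2.61). At chr38:22231476-22232125 they were 16.2 and 2.92 (2.58), and at chr21:44277256-44277930 they were 16.7 and 3.09 (2.54). In each of these 5 regions the colon peak was strong and the stomach peak lay below its list's median, at a normalised fold of 0.317 to 0.650. Between 2 and 9 of the other 9 tissues also had a peak there.

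The largest stomach excesses were smaller. At chr1:45083726-45083998 the colon fold was 2.72 and the stomach fold 14.9 (log2 ratio −2.35). At chr4:20844433-20844853 the folds were 2.37 and 12.4 (−2.28), and at chr26:10506383-10507189 they were 3.37 and 16.5 (−2.18). The other two were chr12:65552883-65553685, with 3.24 and 15.6 (−2.16), and chr10:7423119-7423401, with 3.49 and 16.6 (−2.14). Here the colon peak was weak in its list and between 5 and 9 other tissues had a peak.

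Regions with firm peaks in both organs gave other leaders. Among those with a −log10 q of at least 20 in both lists, colon led most at chr4:28710501-28712066 (24.2 against 6.21, log2 ratio 2.07) and chr2:85144133-85144651 (22.5 against 5.85, 2.05). Next were chr8:60416732-60417369 (23.0 against 6.21, 1.995), chr24:34325760-34326186 (22.8 against 6.35, 1.96) and chr18:14773636-14774932 (35.4 against 9.85, 1.95). Stomach led most at chr24:44554742-44556358, with a colon fold of 8.34 and a stomach fold of 34.5 (−1.94). It was followed by chr4:63440435-63440757 (6.20 against 25.3, −1.92) and chr33:29110400-29112219 (8.09 against 32.1, −1.88). The last 2 were chr10:67431926-67432580 (5.45 against 21.6, −1.88) and chr21:48574374-48575005 (9.87 against 38.7, −1.86). All 5 stomach leaders had a peak in each of the other 9 tissues, and the 5 colon leaders in 8 or 9 of them.

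The 5 strongest colon only regions lay on 3 chromosomes. They were chr9:24855755-24856813 (fold 21.3), chr14:40275682-40276952 (21.2), chr36:19972883-19973425 (20.9), chr9:36618530-36618942 (19.4) and chr36:19958666-19959111 (19.2). Between 2 and 5 other tissues had a peak at each of them, and mammary gland was among these at all 5. The strongest stomach only regions were spread over 5 chromosomes. They were chr14:40335983-40336839 (fold 19.7), chr22:43428323-43428609 (18.9), chr8:66346635-66346945 (18.2), chr30:27499234-27499547 (17.8) and chr20:46182745-46183288 (17.1). The first 4 had a peak in all other 9 tissues and the fifth in 7, so at these regions colon was the organ that lacked a peak the rest of the series mostly had.

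The other 9 tissues, whose lists played no part in choosing the classes, held many single-organ regions. A colon only region had a peak in a median of 5 of them, a stomach only region in 6 and a region of both in 9. In no other tissue was a peak found for 1256 colon only regions (4.76%), 816 stomach only regions (1.98%) and 246 regions of both (0.111%). Colon was the only tissue of the 11 without a peak at 3632 regions (8.80% of stomach only), and stomach the only one without at 1829 (6.94% of colon only). Most differences between these organs were thus at regions methylated enough for a peak elsewhere in the body.

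The regions found in colon alone of 11 tissues had a median width of 273 bases, and 118 of 1256 (9.39%) had a fold at or above the list median. Those found in stomach alone had a median width of 210 bases, and 12 of 816 (1.47%) reached the list median. In the opposite direction, 696 of the 3632 regions that colon alone lacked (19.2%) were at or above the stomach median. For the 1829 that stomach alone lacked, 139 (7.60%) were at or above the colon median. These counts come from lists of unequal length, each read against its own median, and were not recomputed with lists of equal size.

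Single tissues differed in how often they had a peak at each class. Pancreas had one at 38.9% of colon only regions and 51.0% of stomach only regions. Among regions at the same normalised fold, 0.5 to 0.75, these shares were 38.6% and 48.1%. Cerebellum had a peak at 55.3% of colon only and 65.2% of stomach only regions, and mammary gland at 51.0% and 57.0%. Ovary, whose list is the longest, had a peak at 69.5% and 74.2%. The shares were 62.7% and 67.2% in cerebrum, 64.1% and 67.5% in kidney, and 53.0% and 54.6% in lung. In spleen the order was the other way, with 55.8% and 53.1%, and in liver the shares were 65.0% and 63.7%. At the same normalised fold of 0.5 to 0.75 lung had a peak at 51.4% and 51.3%, so its difference was no longer seen. The shares at that level were 63.7% and 60.8% in liver and 54.7% and 50.7% in spleen. They were 64.2% and 65.3% in kidney, 62.1% and 64.9% in cerebrum, and 70.6% and 73.0% in ovary, smaller differences than before. In cerebellum they were 55.6% and 63.7%, and in mammary gland 49.3% and 54.3%. At regions of both, all 9 tissues had a peak at 83.1% (cerebellum) to 93.9% (liver).

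Regions of both that passed the 2-fold rule were placed against the other tissues, using regions with a peak in at least 5 of them and after each tissue's median shift from colon and stomach was removed. Which organ was the higher one was fixed by the rule, so only the place of the other tissues is described. At 5561 regions higher in colon, the colon level was 0.40 above the median of the other tissues on the log2 scale and the stomach level 0.82 below it. The other tissues were nearer to colon at 72.8% of them. At 4964 regions higher in stomach, the stomach level was 0.42 above the others and the colon level 0.78 below, and the others were nearer to stomach at 72.7%. The level of the other tissues counts only those with a peak, so tissues too low for a peak drop out. This can draw the median toward the higher organ on both sides, and how far it did was not tested. These shares therefore do not show which organ departed from the rest. Over all regions of both with 5 other tissues the others were nearer to colon in 50.1%.

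Against all 55 pairs of tissues in the series, colon and stomach were among the most alike. Processed in the same way, the pair had the second highest share of regions of both, 76.65%, after 76.73% for pancreas and stomach, in a range from 49.6% with a median of 66.6%. Its SD of the log2 ratio was the lowest of the 55, at 0.499 with a median of 0.598. The next lowest were 0.518 for colon and lung, 0.519 for pancreas and stomach and 0.525 for lung and mammary gland, so near values were not limited to pairs of digestive organs. Mammary gland and stomach came next after colon and stomach by the share of regions of both, at 76.41%. For colon and stomach the share of regions past 2-fold in either direction, 4.93%, was also the lowest (median 9.96%, highest 21.2%). These pairs share lists, and colon and stomach carry the same animals in their labels, whose part in the likeness was not tested. The lists also differ in length. Colon, pancreas, mammary gland and stomach had 251352 to 271400 autosomal peaks, beside 340948 in cerebellum and 353642 in ovary. The pairs were not recomputed with lists of equal size, so the part of list length in this order was not tested.

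The balance between colon only and stomach only regions varied along the genome. Colon only regions made up from 24.7% (21.9 to 27.7) of the single-organ regions on chromosome 32 to 47.9% (44.5 to 51.3) on chromosome 35, with a median of 38.2% and an SD of 4.99 over the 38 autosomes. The share was 29.9% on chromosome 22 and 31.2% on chromosome 31, the next lowest. It was 45.0% on both chromosome 28 and chromosome 38, the next highest. The Wilson intervals of 25 autosomes did not include the pooled 39.0%. They treat neighbouring regions as independent, which was not shown, so this count is not a test. The median log2 ratio in regions of both moved the same way, from −0.13 on chromosome 32 to 0.07 on chromosome 35.

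Stomach only regions outnumbered colon only regions on all 38 autosomes with the lists as deposited, and less so on chromosomes dense in peaks. Chromosome 9, the densest, had 1248 colon only and 1609 stomach only regions (43.7% colon only). Over the 38 autosomes the number of regions per Mb, from 66.3 to 209.5, had a Pearson r of 0.808 and a Spearman rho of 0.855 with the share of colon only (0.786 and 0.843 without chromosome 32). The points share the same lists and the same regions enter both measures. Stomach only regions were spread more evenly, at 15.2 to 26.3 per Mb, while colon only regions ranged from 5.51 to 20.4 per Mb. As a share of all regions, stomach only was lower where density was higher (rho −0.935), and colon only showed a weaker relation (0.405).

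A count of density that used neither list gave the same picture. The genome was cut into 100-kb windows and these were grouped by the number of merged regions of the other 9 tissues in them. In windows with at most 10 such regions, 26.9% of colon and stomach regions were stomach only and 6.79% colon only. These shares were 21.2% and 8.90% with 11 to 20, 13.1% and 9.77% with 21 to 40, and 8.65% and 8.94% with over 40. Colon only regions thus made up 20.2% of single-organ regions in the sparsest windows and 50.8% in the densest. With lists of equal size the same values were 28.2% and 67.9%. The median log2 ratio of regions of both went from −0.16 to 0.06 over the same windows. Region width changed with this count (median 259 bases in the sparsest windows and 408 in the densest), and its part in the gradient was not tested.

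**Figure D4:**
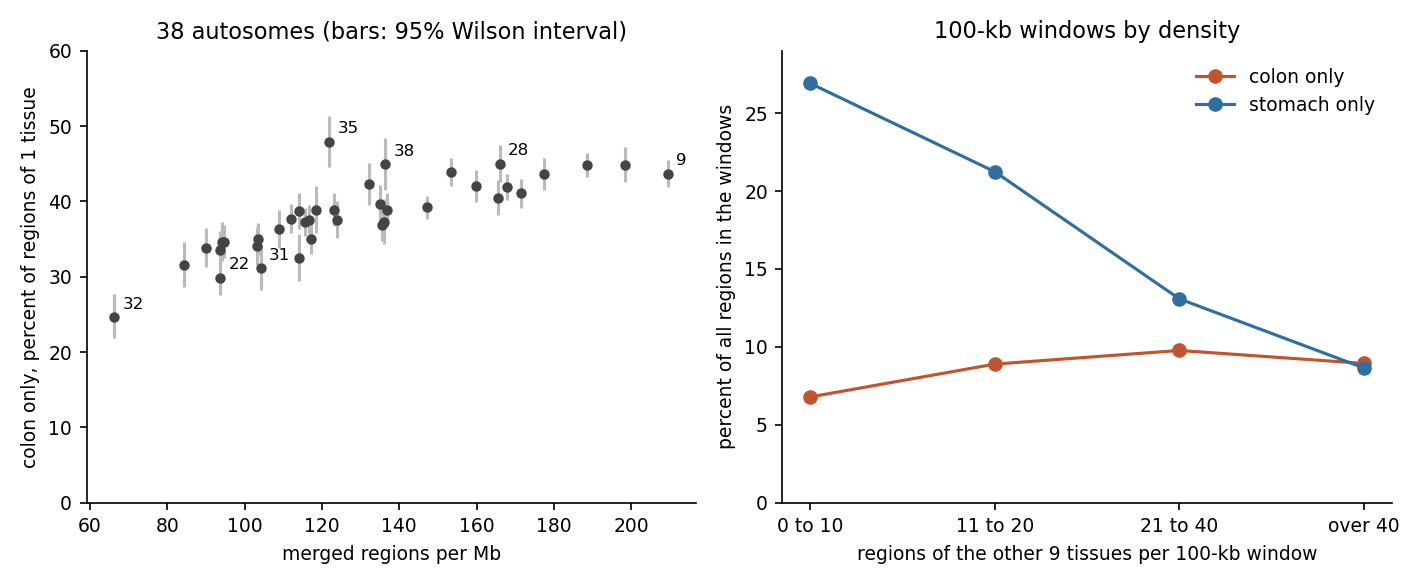
Left, colon only as a percent of the regions found in 1 of the organs, for 38 autosomes (points, with 95% Wilson intervals as bars) against merged regions per Mb, with the lowest on chromosome 32 and the highest on chromosome 35. Right, percent of all regions that were colon only (orange) or stomach only (blue) in 100-kb windows grouped by regions of the other 9 tissues, where stomach only falls from 26.9% to 8.65% and colon only stays between 6.79% and 9.77%.

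The ends of chromosomes differed in the same sense. In the last 5 Mb of the autosomes 82.8% of regions were in both organs and colon only made up 45.2% of the rest. In the first 5 Mb these values were 79.7% and 40.8%, and between the ends 74.9% and 37.9%.

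Single windows hold few single-organ regions, 67637 in 21828 windows, so only large excesses are described. The numbers of colon only and stomach only regions differed by over 10 in 7 windows toward colon and 5 toward stomach. The windows with the largest excess of colon only regions were chr36:19900001-20000000 (20 colon only, 3 stomach only, 12 both), chr28:34300001-34400000 (16, 1 and 47) and chr9:6900001-7000000 (15, 2 and 26). On the stomach side they were chr22:61100001-61200000 (1 colon only, 14 stomach only, 41 both), chr27:37200001-37300000 (0, 13 and 9) and chr18:44400001-44500000 (2, 14 and 36). In the 3 colon windows the median log2 ratio in regions of both was 1.51, 0.53 and 0.52. In the 3 stomach windows it was 0.05, −0.24 and −0.34.

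The window on chromosome 36 stood apart from the others in level as well as in number. Among 7327 windows with at least 10 regions of both, the median log2 ratio lay between −0.38 and 0.42 in the central 98%, and this was the only window above 1. The next highest medians were 0.98 at chr14:40200001-40300000 and 0.78 at chr9:24800001-24900000. On the stomach side the lowest were −0.62 at chr18:53200001-53300000 and −0.62 at chr3:27400001-27500000. These 3 colon windows hold 4 of the 5 strongest colon only regions named above.

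Around these 3 windows, stretches were delimited after their values were seen, by adding neighbouring windows with at least 10 regions of which at least 20% were colon only. They were chr36:19800001-20000000, chr14:40200001-40500000 and chr9:24800001-25000000, and what follows describes them without a test. The chromosome 36 stretch held 46 regions, of which 24 were colon only, 7 stomach only and 15 both. Among the 15, colon was higher in 14, and in 9 of them at least 2-fold. The chromosome 14 stretch held 17 colon only, 13 stomach only and 27 regions of both, of which 10 were 2-fold higher in colon. The chromosome 9 stretch held 21, 4 and 26, of which 10 were 2-fold higher in colon. No region of both in the 3 stretches was 2-fold higher in stomach. Over all regions of both, 2.66% were 2-fold higher in colon and 2.26% in stomach. So few regions would hold hardly any of the latter, and the windows were chosen for high colon ratios. The median log2 ratio was 1.31, 0.58 and 0.58.

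Colon peaks there were wide and strong beside stomach peaks. The windows were chosen for high colon over stomach ratios, so the contrast in fold follows from the choice. On chromosome 36 the median width was 512 bases in colon and 304 in stomach, and the median fold 10.7 and 5.90. On chromosome 14 the median fold was 9.92 in colon and 5.34 in stomach, and on chromosome 9 it was 9.40 and 6.46. At chr36:19955638-19957068 the colon fold was 30.0 and the stomach fold 6.89. At chr9:24858583-24859443 the folds were 17.2 and 3.64. Near these lay regions with like folds in the 2 organs, such as chr36:19856302-19856612 with 11.1 and 11.0. The chromosome 14 stretch also held the strongest stomach only region of the autosomes, named above. Stomach only regions made up 22.8% of that stretch, beside 14.2% of all regions, so it did not lean to colon throughout.

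Colon was not alone among the 11 tissues in covering these stretches. On chromosome 36 peaks covered 27.9 kb in colon, 20.5 kb in mammary gland, 17.1 kb in kidney and 10.8 kb in stomach, with the lowest value, 3.80 kb, in cerebellum. On chromosome 14 ovary (35.4 kb) and mammary gland (33.8 kb) were above colon (32.6 kb), while stomach had 19.9 kb and pancreas 7.63 kb. On chromosome 9 colon had 27.9 kb, mammary gland 23.8 kb, stomach 14.3 kb and cerebellum 3.61 kb. By covered length stomach ranked sixth of the 11 in all 3 stretches. By the median normalised fold of the peaks it was lower, at 0.670 on chromosome 36, 0.607 on chromosome 14 and 0.734 on chromosome 9, with pancreas the only tissue below it each time. The colon median was the highest of the 11 on chromosomes 36 (1.31) and 14 (1.21). On chromosome 9 it was 1.15, behind mammary gland (1.18) and spleen (1.18). Of the 24 colon only regions on chromosome 36, mammary gland had a peak at 16, kidney at 8 and pancreas at 2.

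**Figure D5:**
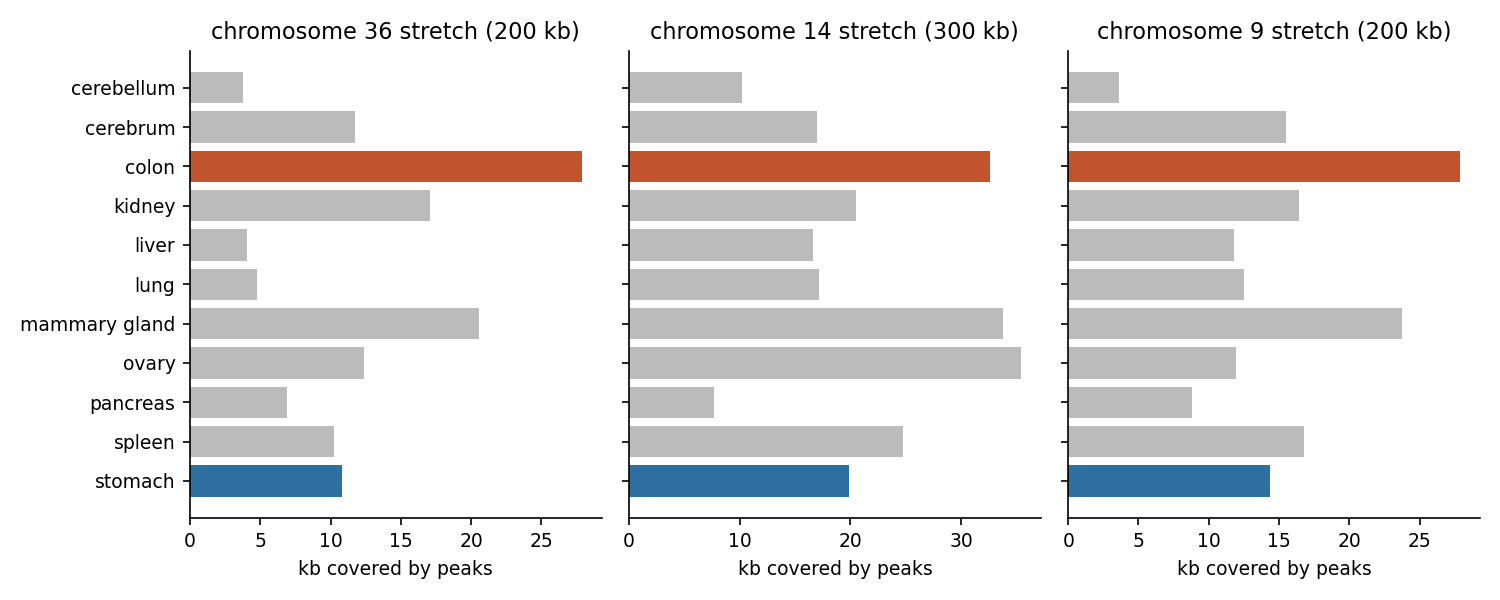
Length covered by peaks, in kb, in each of the 11 tissues within the stretches on chromosomes 36, 14 and 9 (colon orange, stomach blue, other tissues grey). Colon covers the most on chromosomes 36 and 9 and ranks behind ovary and mammary gland on chromosome 14, and stomach ranks sixth by covered length in each.

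Most single-organ regions had no neighbour of their own class. Of colon only regions, 76.7% had a region of another class on each side, as did 64.3% of stomach only regions. Runs of at least 5 numbered 20 in colon only (0.425% of the class) and 95 in stomach only (1.22%). Colon only regions are 9.1% of all regions and stomach only 14.2%, so many would stand alone in random order. The more frequent class would also have more runs. What random order would give was not computed, so these counts do not show whether a class clusters. The longest colon only runs had 8 regions each. One spanned 27.7 kb at chr1:29914589-29942268 with folds of 3.99 to 12.5, and 4 of its 8 regions had a peak in no other tissue. The other spanned 32.8 kb at chr9:24955839-24988673, inside the chromosome 9 stretch, with folds of 2.74 to 12.4, and 6 of its 8 had a peak in no other tissue. These are shares of 4 in 8 and 6 in 8, beside 4.76% of all colon only regions. The longest stomach only run had 9 regions over 460 kb at chr16:42134100-42594054, with folds of 3.51 to 11.5, and each of its regions had a peak in at least 4 other tissues.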

How the data were processed

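Analyses started from 11 narrow-peak lists, 1 per tissue, made by the authors and named in the labels of both captured libraries of each tissue. The build CanFam3.1 is given per the submitters' processing notes. The aligner, peak caller, control, filters and the way libraries were combined are not given in the sources used here. The deposited files have no header, so columns were read by their place and values. The fold is the authors' deposited signal value per peak, a ratio whose control is not named, and the −log10 q-value of each peak is likewise as deposited by the authors. The fold, the q-value and the summit belong to single peaks and were not recomputed.

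Autosomal colon and stomach peaks overlapping by at least 1 base were merged. Folds were divided by the list median, and a region took its highest fold in each list. The log2 ratio is colon over stomach, and 2-fold is a rule of size, not a test. No test was made, since each organ has 1 list. Regions named are the 5 strongest of each single-organ class, the 5 highest and lowest log2 ratios over all regions of both and over those with −log10 q of at least 20, the regions at the 2-fold limit, 3 windows per side and 3 autosomes per end. The windows ranked by log2 ratio, the stretches and the runs were chosen after their values were seen. Members and lists were chosen with earlier results of these data known. No genome or annotation of this build was used here, so gene lists drawn up for gut epithelium, patterning, muscle, blood, nerve, housekeeping and imprinted genes were not analysed, and no sequence is shown. Coordinates are 1-based. Alternatives were the stronger 50% of each list, equal list sizes, 50% overlap, merging across 200 bases, −log10 q of at least 10, and mean in place of highest fold or list median. Where an alternative cut the lists, list medians were recomputed over the peaks kept. Computations were checked on simulated lists. Python 3.11.15, numpy 2.4.6, pandas 2.3.3, scipy 1.17.1 and matplotlib 3.10.9 were used.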

Additional observations from a re-analysis of the deposited data

Results flagged for a closer look

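Chromosome X lay outside the autosomal comparison and showed the same classes in other proportions. Of 12367 merged X regions, 973 were colon only (7.87%), 2841 stomach only (23.0%) and 8553 both (69.2%). Colon only made up 25.5% of the single-organ X regions (24.2 to 26.9), near the lower end of the autosomal range of 24.7% to 47.9%. It was singled out because regions of 1 organ appear in data that the comparison did not use. The captured libraries of both organs carry the same pair of female-labelled animals in the titles. The input of each organ is titled jj8, labelled female there and male in captured libraries of other tissues, so its sex is uncertain.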

How the results depend on the processing

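Of 65 recomputed values, 24 moved by less than their interval and 41 by more. Some of the 24 could not move. Division by the list mean leaves the SD of the log2 ratio as it was, and 50% overlap leaves the single-organ classes as they were. The intervals cover counting or sampling error over many regions, so this tally is no measure of stability. Keeping the stronger 50% of each list gave 67.8% of regions in both, 13.6% colon only and 18.6% stomach only, median widths of 345 and 281 bases, median normalised folds of 0.689 and 0.727, an SD of the log2 ratio of 0.39, and 0.778% and 0.802% past 2-fold toward colon and stomach. Equal list sizes gave 75.4%, 13.1% and 11.6%, widths of 252 and 231, folds of 0.603 and 0.615, an SD of 0.48, 1.62% past 2-fold toward stomach, and an SD over autosomes of 6.17. A −log10 q of at least 10 gave 76.1%, 7.77% and 16.1%, widths of 271 and 239, folds of 0.645 and 0.641, an SD of 0.47, and 1.73% and 2.14% past 2-fold. Merging across 200 bases gave 8.88% colon only, 14.5% stomach only, a stomach only fold of 0.608, an SD of 0.50 and 2.58% past 2-fold toward colon. The mean fold of a region gave an SD of 0.51 and 3.01% past 2-fold toward colon. The mean of the list gave folds of 0.437 and 0.465, and 2.03% and 3.05% past 2-fold. Under 50% overlap 23 regions were no longer counted as both.

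In the sparsest windows colon only made up 15.3% with −log10 q of at least 10, 21.2% in the stronger 50% and 28.2% with equal sizes, and in the densest 44.6%, 53.8% and 67.9%, settings chosen after seeing the data. The share was higher in the densest windows than in the sparsest under all 5 alternatives run. No paired analysis was possible because the captured libraries of each organ share 1 list, which also means that no library could be left out. Without reads, the depth behind a missing peak is unknown, and weak regions depend on the threshold of the lists.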
